A study of Mus musculus with 8 samples.

Results

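The genes of the enzymes that write and erase DNA methylation were followed in 8 bulk RNA-seq libraries of whole mouse testis. They were taken by gene symbol and are Dnmt1, Dnmt3a, Dnmt3b, Dnmt3l, Uhrf1, Tet1, Tet2 and Tet3, 8 of the 54532 genes in the expression table. The measured quantity is the FPKM, a fragment count scaled to the length of the gene and the depth of the library. The control group, Sync-Spdya fl/fl, held 4 mice with the genotype Spdyafl/fl, and the knockout group, Sync-Spdya cKO, held 4 mice with the genotype Spdyafl/fl;Ddx4-CreERT2, in which tamoxifen lets a germ-cell Cre remove exon 2 of Spdya, a meiotic partner and activator of CDK2. All 8 mice carried the floxed allele on a C57BL/6J background, and the controls were littermates without the Cre. All had spermatogenesis synchronized, first by a drug that blocks the synthesis of retinoic acid (RA) and then by RA given back. All were also given tamoxifen, which the labels place at RA7.5 and RA8.5, in days after RA, and all testes were collected at RA11.5, when the leading germ cells are in mid-late pachynema. The study made this comparison to ask whether the loss of Spdya disturbs silencing of the sex chromosomes. The animals' ages are not given in the labels.

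DNA methylation is a methyl group on cytosine, in mammals mostly where a C is followed by a G. DNMT3A and DNMT3B place it on unmethylated DNA, with DNMT3L as a partner that has no catalytic activity of its own, and DNMT1 copies it to the new strand after replication, guided by UHRF1, which binds half-methylated sites. TET1, TET2 and TET3 oxidize the methyl group, the first step of its removal. In the male germ line most of the pattern is laid down before birth, and methylation falls for a time as spermatocytes enter meiosis, when replication outruns its maintenance.

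The starts of these genes differ widely in how much of the substrate of the enzymes they hold. RefSeq (GRCm38.p6) gives 15 start sites for the 8 genes, and the 250 bases before each were counted for the motif CG, which reads the same on both strands. Over the 32851 windows of all RefSeq starts the median was 6 CG and 92.1% held at least 1. Tet2 had 51, more than any other window of the 8 genes, Dnmt3b had 21, and the 3 windows of Dnmt3l had 5, 4 and 3. The 3 windows of Dnmt1 had 2, 7 and 26. The 4 windows below are shown because they span this range and because Dnmt3b, picked for this after its values were seen, was the one gene of the 8 whose groups did not overlap. They are written 5′ to 3′ on the strand of the gene, with every CG in capitals, and none overlaps an annotated exon of its own gene. These are letters of the reference genome, and methylation of these sites was not measured. The FPKM values are per gene, so which start the testis uses was not measured either.
Tet2, chr3:133544391-133544640, minus strand: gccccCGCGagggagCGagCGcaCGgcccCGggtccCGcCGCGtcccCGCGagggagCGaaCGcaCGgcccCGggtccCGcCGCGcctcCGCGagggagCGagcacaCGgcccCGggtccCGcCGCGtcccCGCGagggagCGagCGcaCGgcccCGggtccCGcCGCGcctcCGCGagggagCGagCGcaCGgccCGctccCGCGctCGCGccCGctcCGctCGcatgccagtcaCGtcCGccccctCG
Dnmt3b, chr2:153649199-153649448, plus strand: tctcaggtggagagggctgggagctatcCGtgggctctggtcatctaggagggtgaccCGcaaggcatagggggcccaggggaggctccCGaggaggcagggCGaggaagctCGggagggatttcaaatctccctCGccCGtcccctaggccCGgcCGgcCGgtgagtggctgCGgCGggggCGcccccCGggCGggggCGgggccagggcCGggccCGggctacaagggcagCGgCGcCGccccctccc
Dnmt3l, the second of its 3 starts, chr10:78049592-78049841, plus strand: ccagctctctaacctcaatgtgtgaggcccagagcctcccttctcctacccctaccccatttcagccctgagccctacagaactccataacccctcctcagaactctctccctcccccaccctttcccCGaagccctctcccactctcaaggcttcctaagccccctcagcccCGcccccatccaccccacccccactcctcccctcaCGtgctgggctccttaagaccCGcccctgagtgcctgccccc
Dnmt1, the first of its 3 starts, chr9:20959889-20960138, minus strand: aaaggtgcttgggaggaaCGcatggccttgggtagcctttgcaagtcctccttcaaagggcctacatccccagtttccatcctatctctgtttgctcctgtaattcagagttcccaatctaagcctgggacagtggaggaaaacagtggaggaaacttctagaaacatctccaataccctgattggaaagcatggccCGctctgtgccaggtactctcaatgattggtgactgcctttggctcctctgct

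The libraries held 13978342 to 17867570 fragments in the Sync-Spdya fl/fl group and 15494873 to 19583091 in the Sync-Spdya cKO group. Control replicate 1 stood apart from the rest, with 0.464% of its fragments on mitochondrial genes against 2.20% to 3.74% in the other 7, and the fold changes of the enzyme genes that move with it are given with and without it. Spdya itself was at 19.7 to 23.8 FPKM in the controls and 17.7 to 30.5 FPKM in the knockouts. The deletion takes out 1 exon, whole-gene values include the rest of the transcript, and Spdya therefore gave no check of the labels. By the study's thresholds, an adjusted p below 0.05 and a log2 fold change beyond 1 in either direction, limma called 2 of the 12141 protein-coding genes whose mean exceeded 1 FPKM in each group (0.0165%), and both were lower in the knockouts. Those 2 were 5330417C22Rik and Ccdc42, which were named after their values were seen. With a count model, DESeq2, the study reported more genes at these thresholds, all of them on autosomes.

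None of the 8 enzyme genes was called. Of the 8, 6 passed the expression filter, and Dnmt3l and Tet1, both under it, were tested in a fit of 25931 genes of every biotype with a mean FPKM above 0.1, where 0.0309% of genes were called. At an unadjusted p below 0.05, limma counted 1 of the 6, Dnmt3b, against 10.9% of all genes in that fit (5.89% higher in the knockouts and 5% lower) and 9.3% in the wider one. Dnmt3b was also the one gene of the 8 whose groups did not overlap, against 6.24% of all genes. The log2 fold changes of the 6, knockout minus control on the log2(FPKM + 0.1) scale, had a median of 0.00, beside 0.01 over all genes tested. For each of the 8 the 95% interval of the fold change lay inside a change of 2-fold in either direction.

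**Figure D1:**
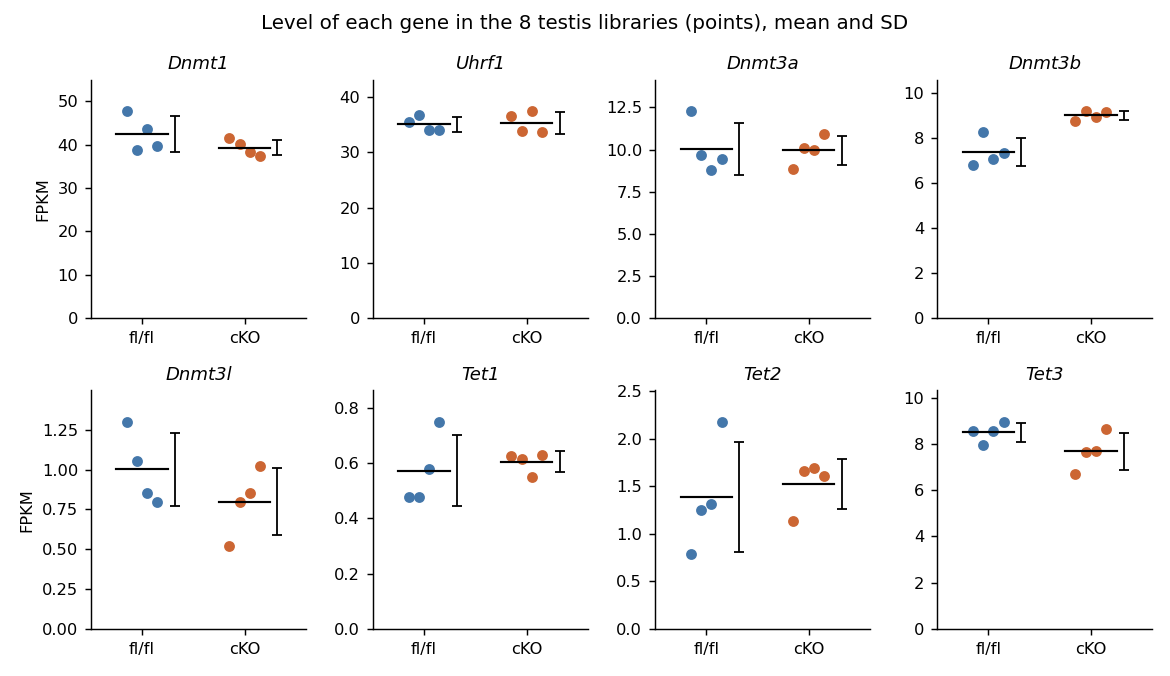
FPKM of each gene in the 4 Sync-Spdya fl/fl (blue) and 4 Sync-Spdya cKO (orange) libraries, with 1 panel per gene and a y axis from 0. Points are libraries in the order of their replicate numbers, horizontal lines are means and the bars beside them SDs. Dnmt3b is the one panel in which all 4 knockouts, at 8.75 to 9.21 FPKM, sit above all 4 controls, at 6.81 to 8.29 FPKM.

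The maintenance pair was the most abundant. Dnmt1 (ENSMUSG00000004099, chr9:20907209-20959888, minus strand, GRCm38) was at 47.8, 38.8, 43.5 and 39.6 FPKM in control replicates 1 to 4 and at 41.5, 40.0, 38.3 and 37.4 FPKM in knockout replicates 1 to 4. The groups overlapped, with 2 of the 4 knockouts below every control and the highest value in control replicate 1. The means were 42.4 ± 4.13 (SD, n = 4) and 39.3 ± 1.82 (SD, n = 4) FPKM, a log2 fold change of -0.10 (SE 0.10, 95% interval -0.33 to 0.12, limma adjusted p = 0.768). Without control replicate 1 the log2 fold change was -0.05. Between 4620 and 5942 fragments stood behind each of these values, and Dnmt1 was above 90.3% of the genes tested.

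Uhrf1 (ENSMUSG00000001228, chr17:56303321-56323486, plus strand), whose protein brings DNMT1 to replicated DNA, varied least. It was at 35.5, 36.7, 34.0 and 34.0 FPKM in the controls and 36.7, 33.8, 37.5 and 33.6 FPKM in the knockouts. The highest of the 8 values was 1.12 times the lowest, and the knockouts lay on both sides of the controls. The log2 fold change was 0.01 (SE 0.09, 95% interval -0.18 to 0.21, limma adjusted p = 0.970), and the direction of so small a value turned when single libraries were left out. Dnmt1 was above Uhrf1 in 8 of 8 libraries, by 0.21 ± 0.13 (SD, n = 8) on the log2 scale of FPKM.

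The proteins of both genes act on replicated DNA, and which cells gave these transcripts was not tested. The summed FPKM of 11 genes of the S phase machinery was 281 to 417 in the controls and 295 to 347 in the knockouts. No knockout was outside the control range, but its top was control replicate 1, and the other controls were at 281 to 334. Knockout replicates 1 and 3, at 347 and 335, lay above those others. No S phase gene of the 11 passed an unadjusted p of 0.05.

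Among the de novo enzymes Dnmt3a (ENSMUSG00000020661, chr12:3806007-3914443, plus strand) had the highest FPKM. It was at 12.3, 9.66, 8.76 and 9.47 FPKM in the controls and 8.83, 10.1, 9.96 and 10.9 FPKM in the knockouts. The 4 knockouts lay inside the control range, which control replicate 1 widened at its top. The log2 fold change was -0.01 (SE 0.12, 95% interval -0.28 to 0.27, limma adjusted p = 0.991), and it was 0.09 without control replicate 1.

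Dnmt3b (ENSMUSG00000027478, chr2:153649450-153687730, plus strand) was at 6.81, 8.29, 7.08 and 7.35 FPKM in the controls and 8.75, 9.21, 8.94 and 9.15 FPKM in the knockouts. All 4 knockouts were above all 4 controls, a separation seen upward in 3.64% of the genes tested. The spread was small in both groups, at 7.38 ± 0.641 (SD, n = 4) and 9.01 ± 0.210 (SD, n = 4) FPKM. The fold was 1.22 (95% interval 1.05 to 1.41), or 0.29 on the log2 scale (SE 0.09), with an unadjusted p of 0.0126 and an adjusted p of 0.328 by limma across the 12141 genes. Dnmt3b therefore did not pass the test. Its log2 fold change stayed between 0.24 and 0.37 over the 20 alternative settings and left-out libraries, with unadjusted p from 0.00558 to 0.0384 and adjusted p from 0.137 to 0.83, and it was 0.25 without control replicate 1. Each value rests on 456 to 866 fragments, and the antisense gene Dnmt3bos, which overlaps the start of Dnmt3b, held 0 to 7.

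A near copy of Dnmt3b lies just downstream on the same strand, Dnmt3c (ENSMUSG00000082079, chr2:153696652-153729907), a rodent enzyme that methylates young transposons in male germ cells. It was at 4.94, 3.60, 6.13 and 4.80 FPKM in the controls and 4.41, 5.80, 6.08 and 5.91 FPKM in the knockouts. The groups overlapped and the log2 fold change was 0.20 (SE 0.17, 95% interval -0.18 to 0.58, limma adjusted p = 0.735). How fragments shared by the 2 genes were assigned is not given in the sources used here, so the values of both are uncertain to that extent. Dnmt3b was above Dnmt3c in 8 of 8 libraries.

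Dnmt3l (ENSMUSG00000000730, chr10:78041947-78063622, plus strand), the partner of the de novo enzymes, was near the limit of these libraries. It was at 1.30, 1.05, 0.856 and 0.796 FPKM in the controls and 0.518, 0.796, 0.853 and 1.02 FPKM in the knockouts, from 30 to 57 fragments per library. The lowest value was in knockout replicate 1 and the highest in control replicate 1, and the groups overlapped. In the wider fit the log2 fold change was -0.31 (SE 0.25, 95% interval -0.88 to 0.27, limma adjusted p = 0.768), and -0.18 without control replicate 1. Leaving out single libraries moved it between -0.42, without knockout replicate 4, and -0.14, without knockout replicate 1.

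Tet3 was the most abundant of the genes for the oxidizing enzymes. Tet3 (ENSMUSG00000034832, chr6:83362373-83459084, minus strand) was at 8.56, 7.98, 8.56 and 8.97 FPKM in the controls and 6.72, 7.65, 7.70 and 8.65 FPKM in the knockouts. Of the 4 knockouts, 3 were below every control, and knockout replicate 4 was inside the control range. The means of 8.52 ± 0.409 (SD, n = 4) and 7.68 ± 0.789 (SD, n = 4) FPKM gave a log2 fold change of -0.15 (SE 0.10, 95% interval -0.38 to 0.08, limma adjusted p = 0.651), which was -0.09 without knockout replicate 1. An antisense transcript inside the gene, B230319C09Rik, held 13 to 31 fragments against 1872 to 2455 for Tet3.

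Tet2 (ENSMUSG00000040943, chr3:133463679-133545139, minus strand) varied most among the 8. It was at 0.792, 1.26, 1.31 and 2.18 FPKM in the controls and 1.14, 1.66, 1.69 and 1.61 FPKM in the knockouts. The controls held both its lowest value, in replicate 1, and its highest, in replicate 4, a span of 2.76-fold that took in every knockout. The log2 fold change was 0.20 (SE 0.27, 95% interval -0.41 to 0.80, limma adjusted p = 0.844) and turned to -0.02 without control replicate 1.

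Tet1 (ENSMUSG00000047146, chr10:62804570-62908996, minus strand) had the lowest mean FPKM of the 8. It was at 0.479, 0.478, 0.579 and 0.750 FPKM in the controls and 0.624, 0.616, 0.549 and 0.629 FPKM in the knockouts, from 97 to 190 fragments per library. Each knockout lay inside the control range. The log2 fold change in the wider fit was 0.09 (SE 0.22, 95% interval -0.42 to 0.59, limma adjusted p = 0.936). It was 0.020 without control replicate 1, 0.019 without control replicate 2 and 0.20 without control replicate 4.

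**Figure D2:**
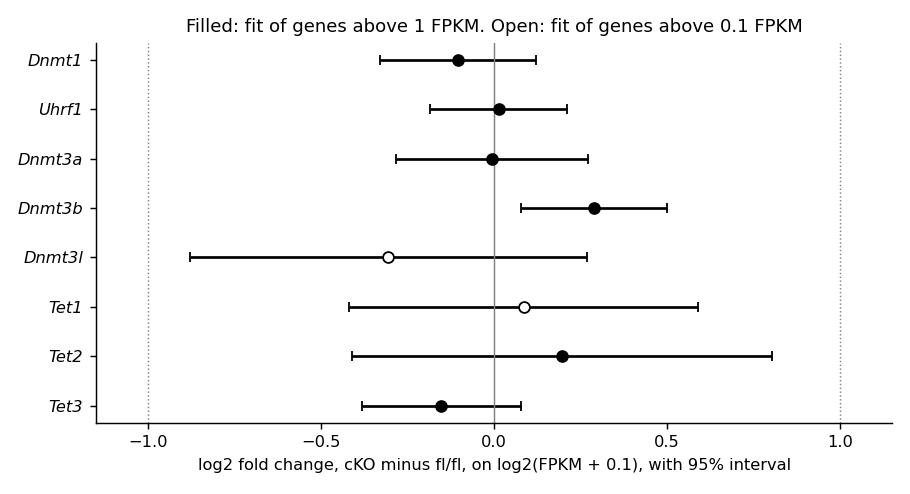
Log2 fold change of each gene, Sync-Spdya cKO minus Sync-Spdya fl/fl (x axis, on log2(FPKM + 0.1)), with its 95% interval from limma (bars), 4 libraries per group. Filled points come from the fit of genes above 1 FPKM and open points, Dnmt3l and Tet1, from the fit of genes above 0.1 FPKM. Dotted lines mark the fold threshold of 1, which no interval reaches, and the interval of Dnmt3b, from 0.08 to 0.50, is the one that leaves out 0.

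Set in order of mean FPKM, the levels ran Dnmt1, Uhrf1, Dnmt3a, Dnmt3b, Tet3, Tet2, Dnmt3l and Tet1. The length in this unit joins the exons of all annotated transcripts, 16642 bases for Dnmt3a and 5106 for Dnmt3b. Small steps between genes are therefore uncertain as an order of transcript abundance. The steps from Uhrf1 to Dnmt3a and from Tet3 to Tet2 were wide, at 1.81 ± 0.18 and 2.44 ± 0.41 (SD, n = 8 libraries) on the log2 scale. The step from Dnmt3a to Dnmt3b was small, 0.28 ± 0.25, though Dnmt3a was above Dnmt3b in 8 of 8 libraries. Dnmt3b and Tet3 were level over all 8 libraries, at 0.01 ± 0.27, but not within the groups. Dnmt3b minus Tet3 was -0.21 ± 0.17 (SD, n = 4) in the controls and 0.23 ± 0.12 (SD, n = 4) in the knockouts, and Dnmt3b was above Tet3 in 1 of 4 controls and in 4 of 4 knockouts. The difference between the groups in this pair was not tested, and the pair was singled out after its values were seen. Tet2 was above Dnmt3l and Dnmt3l above Tet1 in 7 of 8 libraries each.

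**Figure D3:**
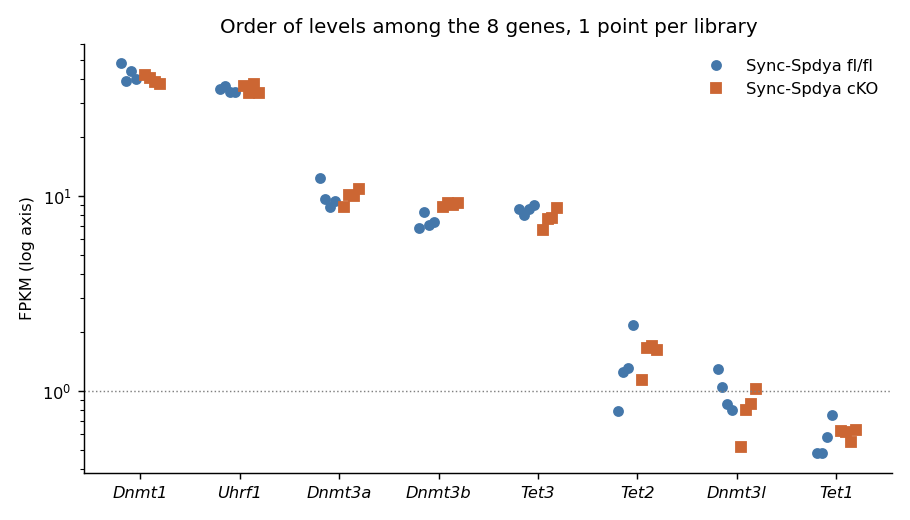
FPKM (y axis, log scale) of the 8 genes in order of their mean level, with 1 point per library, circles for Sync-Spdya fl/fl and squares for Sync-Spdya cKO. The dotted line is at 1 FPKM. Dnmt1 and Uhrf1 sit together at the top, at 33.6 to 47.8 FPKM, and Dnmt3l and Tet1 around and under 1 FPKM.

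The ratio of Dnmt3b to Tet3 FPKM was 0.796 to 1.04 in the controls and 1.06 to 1.30 in the knockouts, without overlap. Dnmt3b alone was also without overlap, and not every pair of the 8 genes was compared. The other ratios and shares given here overlapped between the groups. That of Dnmt3b to Dnmt3a FPKM was 0.554 to 0.858 in the controls and 0.838 to 0.991 in the knockouts. Dnmt1 made up 68.3% to 73.3% of the summed FPKM of Dnmt1, Dnmt3a and Dnmt3b in the controls and 65.1% to 70.3% in the knockouts. Tet3 made up 75.4% to 87.1% of the summed FPKM of the 3 Tet genes in the controls and 77.0% to 79.4% in the knockouts. The 3 methyltransferase genes together stood at 56.4 to 66.9 FPKM and 57.2 to 59.4 FPKM, and the 3 Tet genes at 9.71 to 11.9 FPKM and 8.48 to 10.9 FPKM, with overlap in each case. These sums are of mRNA and say nothing of the amount or activity of the proteins.

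Whole testis mixes germ cells and somatic cells, and in such libraries fewer cells of a type and less RNA per cell cannot be told apart. The 8 pachytene markers, among them Hspa2 and Piwil1, summed to 974 to 1516 FPKM in the controls and 752 to 1175 FPKM in the knockouts. Of the 4 knockouts 3 were below every control. Of the 8 genes, 7 had a mean above 1 FPKM and 6 passed the filter. Of 6 spermatid markers, Acrv1, Tnp1 and Prm2 were at a mean of 0.1 FPKM or less. The other 3 were above 0.1 FPKM, and 1 of them was above 1 FPKM. Some somatic lists were higher in the knockouts, as Dnmt3b was. The 6 macrophage markers summed to 14.0 to 29.3 FPKM in the controls and 32.1 to 43.9 FPKM in the knockouts with no overlap, and the 5 markers of peritubular cells to 44.8 to 75.0 and 74.0 to 104 FPKM, where 3 of 4 knockouts were above every control. The 6 Leydig markers summed to 16.5 to 17.2 FPKM in 3 controls and 37.9 FPKM in control replicate 4. In the knockouts they summed to 28.6 to 46.7 FPKM. The 6 endothelial markers summed to 6.25 to 13.6 and 12.5 to 15.9 FPKM. Differentiating spermatogonia markers, 5 genes, summed to 91.8 to 113 and 110 to 133 FPKM. The sums for 10 markers of undifferentiated spermatogonia, 70.6 to 108 and 73.8 to 88.0 FPKM, for 5 of early prophase, 151 to 194 and 155 to 241 FPKM, and for 8 of Sertoli cells, 291 to 406 and 320 to 388 FPKM, overlapped. So did those for the 6 markers of spermatids, 2.52 to 9.56 and 4.39 to 6.31 FPKM. For both the Sertoli and the spermatid list the highest control sum was in replicate 1. In the other controls the Sertoli sum was 291 to 326 FPKM, and knockout replicates 2 to 4, at 350 to 388 FPKM, were above it. In the other controls the spermatid sum was 2.52 to 5.18 FPKM, and knockout replicates 1 and 2, at 5.87 and 6.31 FPKM, were above it. At an unadjusted p below 0.05 by limma, 5.89% of all genes tested were higher and 5% lower. Higher were 4 of 6 tested macrophage, 2 of 3 Leydig, 2 of 4 endothelial and 1 of 3 peritubular genes. So were 2 of 5 of differentiating and 1 of 8 of undifferentiated spermatogonia, and 1 of 5 of early prophase. Lower were 2 of 6 pachytene, 1 of 5 differentiating spermatogonia and 1 of 5 early prophase genes. Of 8 Sertoli genes and 1 spermatid gene 0 passed. The part of any of these lists in the values of Dnmt3b or Tet3 was not tested.

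**Figure D4:**
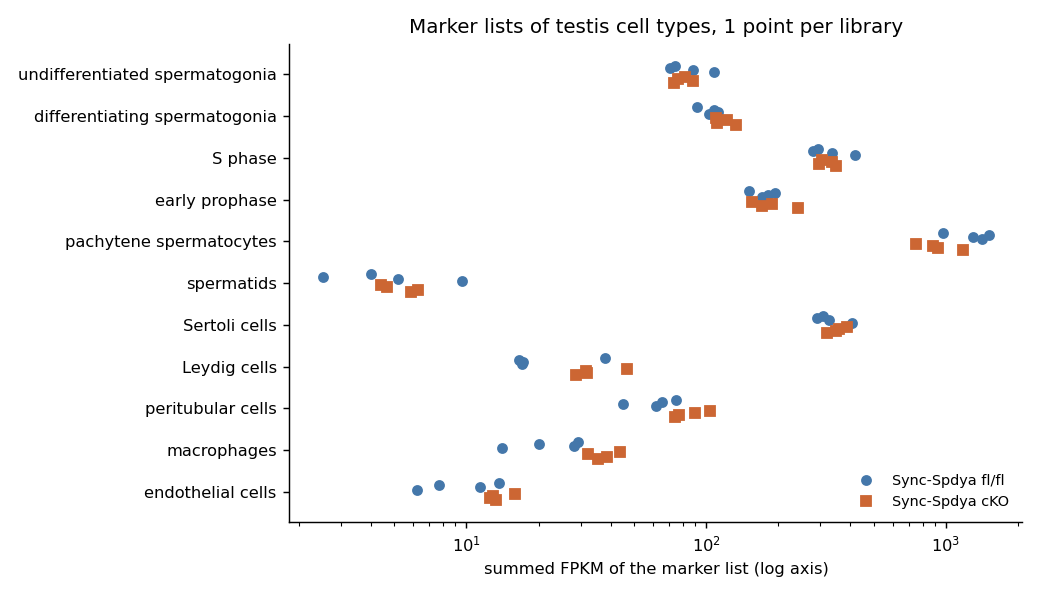
Summed FPKM (x axis, log scale) of each list of cell type markers in the 4 Sync-Spdya fl/fl (circles) and 4 Sync-Spdya cKO (squares) libraries. The macrophage sums do not overlap between the groups, and 3 of 4 knockouts have a lower pachytene sum than every control.

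The wider machinery around these enzymes was read from 5 lists with 74 genes, of which 69 passed the filter. None of the 69 was called, 4 passed an unadjusted p of 0.05 by limma (3 higher and 1 lower, and 7 in all without control replicate 1), and 40 had a log2 fold change above 0 and 29 below, with a median of 0.03 beside 0.01 over all genes. Over all genes tested 10.9% passed that unadjusted p. The groups did not overlap for 2 of the 69 upward and for 2 downward, beside 3.64% and 2.59% of all genes tested.

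Partners and relatives of the methyltransferases, 20 of 20 tested, gave 0 genes at an unadjusted p below 0.05 by limma. Setdb1, which methylates histone H3 at silenced DNA, was at 30.6 to 34.5 FPKM in the controls and 27.8 to 29.9 FPKM in the knockouts without overlap, a pattern that 2.59% of all genes showed downward, with a log2 fold change of -0.19 (SE 0.09, limma adjusted p = 0.472). Ctcfl, a testis paralog of the insulator protein CTCF, had a log2 fold change of -0.57, with controls from 3.70 to 9.98 FPKM and knockouts from 2.90 to 4.00 FPKM. The highest value was in control replicate 3, and without that library it was -0.27. Trdmt1, a relative of the methyltransferases that acts on tRNA, was at 4.02 to 5.49 and 5.35 to 6.20 FPKM, a log2 fold change of 0.19, or 0.096 without control replicate 1.

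Readers of methylated CG and their relatives, 10 of 10 tested, held 2 genes at an unadjusted p below 0.05, 1 in each direction. Mbd6, a member of the methyl-CG binding domain family, was at 32.1 to 48.5 FPKM in the controls and 48.1 to 52.2 FPKM in the knockouts, a log2 fold change of 0.37 (limma adjusted p = 0.386). Mbd4, a glycosylase that removes thymine from mismatches at CG, was at 3.88 to 4.80 and 3.38 to 3.84 FPKM without overlap, a log2 fold change of -0.29 (limma adjusted p = 0.408). Zbtb38, a zinc finger protein that binds methylated DNA, had a log2 fold change of 0.19 with overlap, and of 0.0081 without control replicate 1.

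Excision and deamination genes complete demethylation after the TET step, and 15 of 17 were tested. Apex1, which cuts the backbone at the abasic site left by a glycosylase, was at 8.82 to 12.4 FPKM in the controls and 12.5 to 14.4 FPKM in the knockouts without overlap. Its log2 fold change was 0.34, with an unadjusted p of 0.0157 and a limma adjusted p of 0.341. Apobec1, a cytidine deaminase, had a log2 fold change of 0.33, and Polb, the polymerase that fills the repaired gap, one of -0.15, both with overlap. Neil3, a glycosylase of proliferating cells under the filter, was singled out after its values were seen. It was at 1.68, 0.973, 0.83 and 1.41 FPKM in the controls and 0.631, 0.654, 0.779 and 0.636 FPKM in the knockouts. The 4 knockouts were below the 4 controls, as in 2.83% of genes of the wider fit, where its log2 fold change was -0.73 (SE 0.25) with an unadjusted p of 0.0164 and a limma adjusted p of 0.428.

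CXXC proteins bind unmethylated CG, and 7 of 8 were tested, with 0 at an unadjusted p below 0.05 by limma. The log2 fold changes were 0.14 for Cxxc5, -0.15 for Kdm2a and -0.17 for Kdm2b, and the median of the list was -0.14. Without control replicate 1 they were -0.091 for Kdm2a and -0.0030 for Kdm2b, and without control replicate 3 that of Cxxc5 was 0.0078.

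Enzymes that supply the methyl donor S-adenosylmethionine, or that handle the 2-oxoglutarate on which TET enzymes depend, gave 17 of 19 tested and 1 at an unadjusted p below 0.05. That gene was D2hgdh, which clears D-2-hydroxyglutarate, an inhibitor of TET enzymes. It was at 4.08, 4.03, 2.94 and 4.73 FPKM in the controls and 4.86, 5.43, 5.73 and 6.04 FPKM in the knockouts, without overlap. Its log2 fold change of 0.49 (SE 0.15, 95% interval 0.15 to 0.82) had an unadjusted p of 0.00901 and a limma adjusted p of 0.287, and it was 0.51 without control replicate 1. Mat1a and Shmt2, which make S-adenosylmethionine and feed the folate cycle, had log2 fold changes of 0.44 and 0.26 with overlap.

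**Figure D5:**
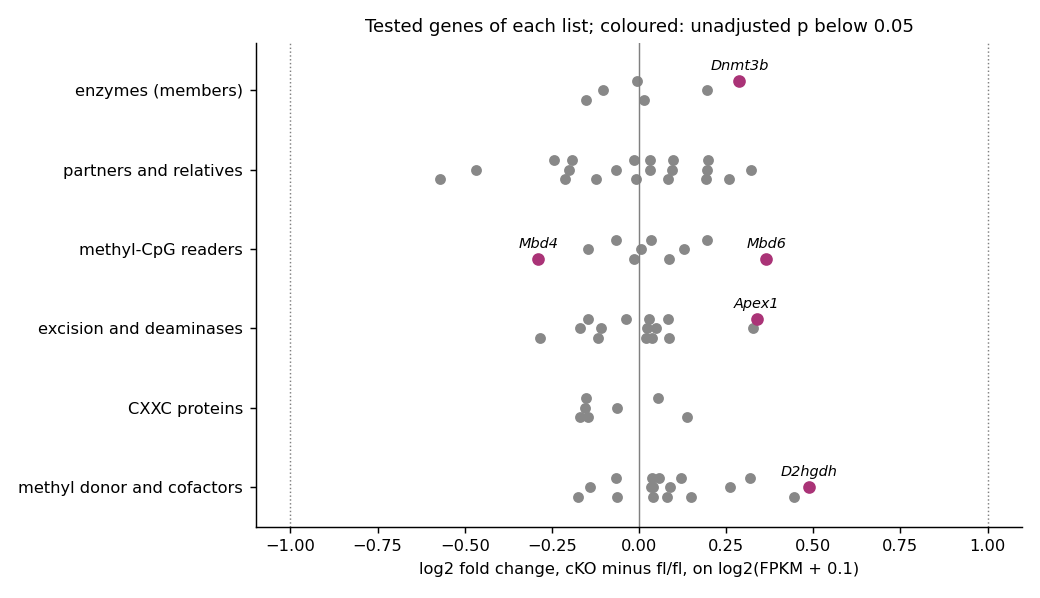
Log2 fold change, Sync-Spdya cKO minus Sync-Spdya fl/fl (x axis, on log2(FPKM + 0.1)), of the tested genes of the enzyme set and of each list, 1 point per gene. Coloured points passed an unadjusted p of 0.05, and no point reaches the dotted lines at the fold threshold of 1. Dnmt3b, Mbd6, Apex1 and D2hgdh lie on the higher side and Mbd4 on the lower.

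The genes whose pattern over the 8 libraries was most like that of each enzyme gene were ranked by the root mean square difference of their centred log2 values among 12135 tested genes. For Dnmt3b these were Tbc1d20, at 0.04, and Calcoco1, at 0.05, beside a median of 0.26 over all genes. For Dnmt1 they were Ube2q2 and Kdm2a, a CXXC protein from the lists above, both at 0.03. The nearest were Brix1 and Gtf2h3 for Uhrf1, Gpr37 and Nudcd2 for Dnmt3a, Sos1 and Zhx3 for Tet3, and Tpmt and Ptprd for Tet2. Lcp2 and Sc5d came nearest to Tet1, and Pdzd4 and Epha1 to Dnmt3l at 0.13 and 0.16, the loosest match of the 8. These names are a description over 8 libraries.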

How the data were processed

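Whole testis RNA of 8 mice (4 Sync-Spdya fl/fl, 4 Sync-Spdya cKO, 1 library each) was sequenced by the authors on an Illumina HiSeq as paired reads. The labels name an RNeasy kit and tamoxifen at RA7.5 and RA8.5, and the study's methods Trizol and slightly earlier injections. The authors deposited FPKM per gene, and the submitters' processing notes name GRCm38/mm10. Aligner, counter and strand setting are not given in the sources used here. Groups and replicate numbers were read from the sample titles. The deposited FPKM times gene length came out as whole fragments within a tolerance of 0.02 for 100% of values, which gave the depth of each library, 13978342 to 19583091 fragments. Single mice are the replicates, and the most similar pair of libraries still differed beyond sampling noise.

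The deposited unit is FPKM, a normalized value, so the main test was not the study's count model but limma 3.58.1 in R 4.3.3 on log2(FPKM + 0.1), with lmFit and a trended eBayes and no covariates. The scale understates the change of low genes. The study's filter, a mean over 1 FPKM in each group for protein-coding genes, left 12141, over which p-values were adjusted by Benjamini and Hochberg. Genes under that filter were read from a fit of 25931 genes with a mean above 0.1. On data simulated with 200 genes changed by 1.5 on the log2 scale, 184 and 182 were called at dispersions of 0.02 and 0.05. At 0.5 on the log2 scale, a change under the fold threshold, 0 and 1 were called. Without the fold threshold, 52 and 1 of those 200 passed a limma adjusted p of 0.05, beside 8 and 0 unchanged genes. With changes of 1.5, 17 and 8 unchanged genes passed it. At these dispersions, which were not compared with those of the data, the limma test itself missed most changes of 0.5.

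The genes named are the enzymes, Spdya, the 3 genes of each pathway list with the smallest p, and the 2 genes most like each enzyme, with other names marked where they were chosen after their values were seen. The members and lists were chosen with earlier results of these data known. Of the gene IDs, 99.9% are in GENCODE vM21, whose exon unions equal the lengths used. Alternatives were the pseudocount, the filter, the scaling, a replicate block, array weights, a fit without trend, voom on recovered fragments and each library left out. Mice of the same replicate number were treated as unpaired, since same-numbered libraries correlated at 0.08 to 0.41 and only 3 of 4 pairs passed 0.1.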

Additional observations from a re-analysis of the deposited data

Results flagged for a closer look

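Of 48 groups of 4 libraries examined for a single library far from the rest, 3 stood out, where chance gives about 2.4 at 1 in 20. Tet1 was at 0.549 FPKM in knockout replicate 3 and at 0.616 to 0.629 FPKM in the other 3 knockouts. Tet2 was at 1.14 FPKM in knockout replicate 1 and at 1.61 to 1.69 FPKM in the others. Setdb1 was at 29.9 FPKM in knockout replicate 1 and at 27.8 to 28.2 FPKM in the others, which leaves all 4 below the lowest control at 30.6 FPKM.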

How the results depend on the processing

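No enzyme gene and no gene of the 5 lists was called by limma under any of the 21 alternatives, and Dnmt3b stayed the count of 1 at an unadjusted p below 0.05 in the 20 that give one. The number of genes called over the whole table, 2, became 1 after rescaling to TPM and after centring on the median, 57 with array weights, 8 with all biotypes, and 0 with no filter or a mean FPKM above 5 (1913 and 744 at an unadjusted p below 0.05). Over the left-out libraries it ran from 0 to 3, with 0 without control replicates 2 or 3 or knockout replicates 1, 3 or 4, 1 without control replicate 4 and 3 without knockout replicate 2, and 687 to 1889 passed an unadjusted p of 0.05. With the replicate number as a block, 0 genes were called (1777 at an unadjusted p below 0.05), Dnmt3b had an adjusted p of 0.242, and no call among the enzymes changed; 3 of 4 controls correlated best with the knockout of their own number. Log2 fold changes of the enzymes kept their direction in 145 of 155 alternatives. The exceptions lay near 0: Dnmt3a turned to 0.073 rescaled to TPM, 0.012 centred on the median and 0.089 with array weights, and ran from -0.067 to 0.095 over the left-out libraries, above 0 without control replicate 1 or knockout replicate 1. Over the left-out libraries Uhrf1 ran from -0.015 to 0.037, below 0 without control replicates 3 or 4 or knockout replicates 1 or 3, and Tet2 from -0.023, without control replicate 1, to 0.43. The cause was not tested. Rescaling to TPM moved the median of all genes to 0.09. Named list genes kept their sign in 292 of 292 alternatives, but not their size: with 1 library left out, Kdm2b reached -0.0030, Zbtb38 0.0081, Cxxc5 0.0078 and Ctcfl -0.27. D2hgdh passed an adjusted p of 0.05 only with array weights (0.0346, over all its alternatives 0.0346 to 0.799). List genes at an unadjusted p below 0.05 numbered 2 to 10 over the alternatives, against 4, with 7 without control replicates 1 or 2 2 without knockout replicate 3 and 7 with the replicate block. Fragments limit Dnmt3l and Tet1 most, at 30 to 57 and 97 to 190 per library.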
